A study of Mus musculus with 24 samples.

Results

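The genes described here encode 10 mitochondrial enzyme subunits of branched-chain amino acid catabolism: *Bcat2*, *Bckdha*, *Bckdhb*, *Dbt*, *Dld*, *Ivd*, *Mccc1*, *Mccc2*, *Pcca* and *Pccb*. They were taken by gene symbol, with no use of their measured levels, and all 10 were among the 16730 genes of the deposited tables. Epididymal white adipose tissue (eWAT) came from 24 male mice in 4 groups of 6, the genotypes *Lama4* fl/fl and *Lama4* AKO, each fed chow or a high-fat diet (HFD). *Lama4* encodes laminin alpha 4, a basement membrane chain of adipocytes. The *Lama4* fl/fl mice carried loxP sites around exon 3 of *Lama4* without Cre and served as controls. The *Lama4* AKO mice carried the same floxed alleles and a Cre driven by the adiponectin promoter, which acts in adipocytes and not in the other cells of the tissue. Both genotypes were littermates. Mice ate regular diet 5015 (chow) or a 45% fat diet for 20 weeks, and RNA of the whole fat pad was sequenced from the 3′ ends of transcripts (QuantSeq). The paper's figure legends give chow from weaning to 24 weeks of age and HFD to a later age. Diet and age therefore cannot be told apart in the comparisons of HFD with chow.

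Leucine, isoleucine and valine are degraded in mitochondria by a shared start and separate ends. The transaminase BCAT2 removes the amino group, and the branched-chain ketoacid dehydrogenase complex (BCKDH) then removes a carboxyl group in the step that commits the carbon to breakdown. Beyond it, isovaleryl-CoA dehydrogenase (IVD) and methylcrotonyl-CoA carboxylase (MCC) work on the leucine branch, and propionyl-CoA carboxylase (PCC) receives propionyl-CoA from isoleucine and valine. In white fat the pathway is known for its rise as adipocytes differentiate, where it feeds acetyl-CoA and odd-chain precursors into lipid synthesis, and for low expression in obesity. Differentiated adipocytes hold much of it, so in bulk tissue fewer adipocytes and less enzyme mRNA per adipocyte cannot be told apart.

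In the libraries labelled *Lama4* AKO, 3 of the 10 genes were lower on HFD than on chow: *Bckdha* (2.01-fold), *Ivd* (2.21-fold) and *Mccc2* (1.83-fold). At the same threshold (adjusted p of at most 0.05, edgeR) 12.9% of all 15020 genes tested were lower. None of the 10 met the criteria of the study's methods, given further below. None of the 3 calls held with every library left out in turn. The other 7 had estimates below 0 that did not pass the test. In *Lama4* fl/fl mice none of the 10 passed the test for diet with all 24 mice, and none passed that for genotype on either diet. In each of these comparisons 0% of all genes passed it. The 3 genes that passed encode the catalytic alpha subunit of the first BCKDH enzyme, the leucine-specific dehydrogenase and the non-biotin subunit of MCC. The other subunits of BCKDH and MCC did not pass, so the calls do not single out steps of the pathway.

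The promoters of these 3 genes are shown because they are the members that passed the test. Each line gives 300 bases of GRCm38.p6 from RefSeq, from 250 bases before the transcription start to 50 bases after it, read 5′ to 3′ on the strand of the gene: chr7:25658712-25659011 (reverse strand) for *Bckdha*, chr2:118861744-118862043 (forward strand) for *Ivd* and chr13:100015590-100015889 (reverse strand) for *Mccc2*. Capitals mark matches on either strand to 4 short motifs: CCAAT (the core of the NF-Y site), GGGCGG (the Sp1 core), CACCC (a core bound by Krüppel-like factors) and TATAAA (the TATA box).
Bckdha: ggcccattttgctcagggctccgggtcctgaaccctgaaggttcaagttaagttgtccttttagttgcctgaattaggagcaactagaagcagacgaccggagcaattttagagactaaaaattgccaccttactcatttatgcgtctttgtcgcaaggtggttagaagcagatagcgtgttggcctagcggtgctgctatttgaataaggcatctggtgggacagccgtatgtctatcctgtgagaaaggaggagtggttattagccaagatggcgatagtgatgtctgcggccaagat
Ivd: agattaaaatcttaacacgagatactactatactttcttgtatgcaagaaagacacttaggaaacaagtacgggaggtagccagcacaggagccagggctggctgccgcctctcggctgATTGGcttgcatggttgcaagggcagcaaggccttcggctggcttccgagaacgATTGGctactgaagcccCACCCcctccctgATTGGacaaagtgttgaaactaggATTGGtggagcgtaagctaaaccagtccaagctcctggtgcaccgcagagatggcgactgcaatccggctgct
Mccc2: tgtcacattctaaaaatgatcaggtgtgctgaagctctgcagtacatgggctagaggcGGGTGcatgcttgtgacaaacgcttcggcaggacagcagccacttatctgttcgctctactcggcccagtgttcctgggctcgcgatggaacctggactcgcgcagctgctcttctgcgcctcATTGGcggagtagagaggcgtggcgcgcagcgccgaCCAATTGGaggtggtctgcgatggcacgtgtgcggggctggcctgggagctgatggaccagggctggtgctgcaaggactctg
The *Ivd* window held 4 matches to CCAAT and 1 to CACCC, and the *Mccc2* window held 3 to CCAAT, of which a pair on opposite strands overlapped, and 1 to CACCC. The *Bckdha* window held no match to any of the 4 motifs, so the 3 windows shared none of them. Its RefSeq start lies downstream of the annotated gene start at 25658981, so most of this window is inside the annotated gene. Sequence further upstream of *Bckdha* was not searched. RefSeq windows were found for 9 of the 10 genes, all except *Dbt*. CCAAT was present in 6 of the 9 and in 37.4% of all 32841 promoter windows. CACCC was present in 6 of the 9 and in 57.5% of all windows. GGGCGG was present in 3 of the 9 against 35.7%, and TATAAA in none of the 9 against 13.6%. GC content was 48% for *Bckdha*, 53% for *Ivd* and 60.3% for *Mccc2*, around the median of 52.7% over all windows.

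Library totals ran from 5579590 to 18764516 counts, and those of the HFD-fed *Lama4* AKO group from 9156492 to 11640690, the lowest by median. The 10 genes had between 50 and 2761 counts in a library and no zeros, so all 10 passed the filter on low counts, and 15020 genes were tested. The first principal component held 45.8% of the variance of all genes. The libraries are those of whole fat by their markers: the 8 adipocyte markers (*Adipoq*, *Plin1*, *Cidec*, *Lipe*, *Fabp4*, *Cfd*, *Retn*, *Pparg*) summed to between 8129 and 50090 CPM (counts scaled to a common library size), while 2 of 6 epididymal epithelium markers were measured and neither passed the filter. *Lama4* itself was 0.11 log2 units higher in AKO than in fl/fl libraries on chow (adjusted p = 0.98) and 0.69 lower on HFD (-0.69, adjusted p = 0.347, edgeR). The counts are per gene from 3′ ends and not per exon, so these levels do not measure the loss of exon 3 directly. The paper reported lower *Lama4* by quantitative PCR in eWAT of chow-fed AKO mice. Why these libraries differ from that result was not tested. *Gm28586*, a transcript on chromosome 9, had counts in all 12 libraries labelled *Lama4* AKO, in 1 of the 12 labelled fl/fl (HFD-fed replicate 2, 33 counts) and 0 in the other 11. That library goes against its label in this respect, and results on HFD-fed fl/fl mice are therefore also given without it.

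*Bckdha* (ENSMUSG00000060376, chromosome 7, 25629946 to 25658981, reverse strand) encodes the E1 alpha subunit of BCKDH, which carries the thiamine-dependent active site and the phosphorylation site that shuts the complex off. On chow its level in *Lama4* AKO libraries ran from 18.3 to 40.8 CPM with a median of 30.1. On HFD the lowest was 13.3, the median 14.2 and the highest 18.6 CPM. Of the 6 HFD-fed libraries, 5 lay below every chow-fed one, and the groups overlapped through a single library. The change was -1.01 log2 units (SE 0.279, adjusted p = 0.0228, edgeR). In *Lama4* fl/fl libraries, chow-fed levels were 14.6 to 46.9 CPM (median 18.1) and HFD-fed levels 12.2 to 39.3 CPM (median 22.6). Those groups overlapped over most of their range, with a change of 0.05 (SE 0.275, adjusted p = 0.964).

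*Ivd* (ENSMUSG00000027332, chromosome 2, 118861954 to 118882909, forward strand) encodes the flavoprotein that oxidizes isovaleryl-CoA, the third step of leucine breakdown. In chow-fed *Lama4* AKO libraries the lowest level was 30.05, the median 49.7 and the highest 90.4 CPM. HFD-fed AKO libraries had 19.4, 23.0 and 35.97 CPM in the same order. Again 5 of 6 HFD-fed libraries lay under the whole chow range, and replicate 6 was the exception. The change of -1.14 (SE 0.347, adjusted p = 0.0284, edgeR) was the largest of the 10. In *Lama4* fl/fl mice, *Ivd* ran from 28.5 to 114 CPM on chow (median 42.6) and from 24.1 to 85.1 CPM on HFD (median 35.9). The difference of -0.22 (SE 0.341) was smaller than the spread, and the adjusted p was 0.877.

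*Mccc2* (ENSMUSG00000021646, chromosome 13, 99948530 to 100015639, reverse strand) encodes the beta subunit of MCC, which carries the carboxyl transfer and holds no biotin. Its counts, from 50 to 367 in a library, were the fewest of the 10. Chow-fed AKO libraries had 8.54 to 23.1 CPM (median 15.7), and HFD-fed AKO libraries 6.09 to 12.1 CPM (median 8.66). Only 3 of 6 HFD-fed libraries lay below the chow range, although all 6 lay below its median. The change was -0.87 (SE 0.312, adjusted p = 0.0473, edgeR). In fl/fl libraries the chow values were 10.9 to 27.6 CPM (median 11.9) and the HFD values 5.96 to 25.8 CPM (median 12.5), and the change was 0.02 (SE 0.307, adjusted p = 0.989).

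**Figure D1:**
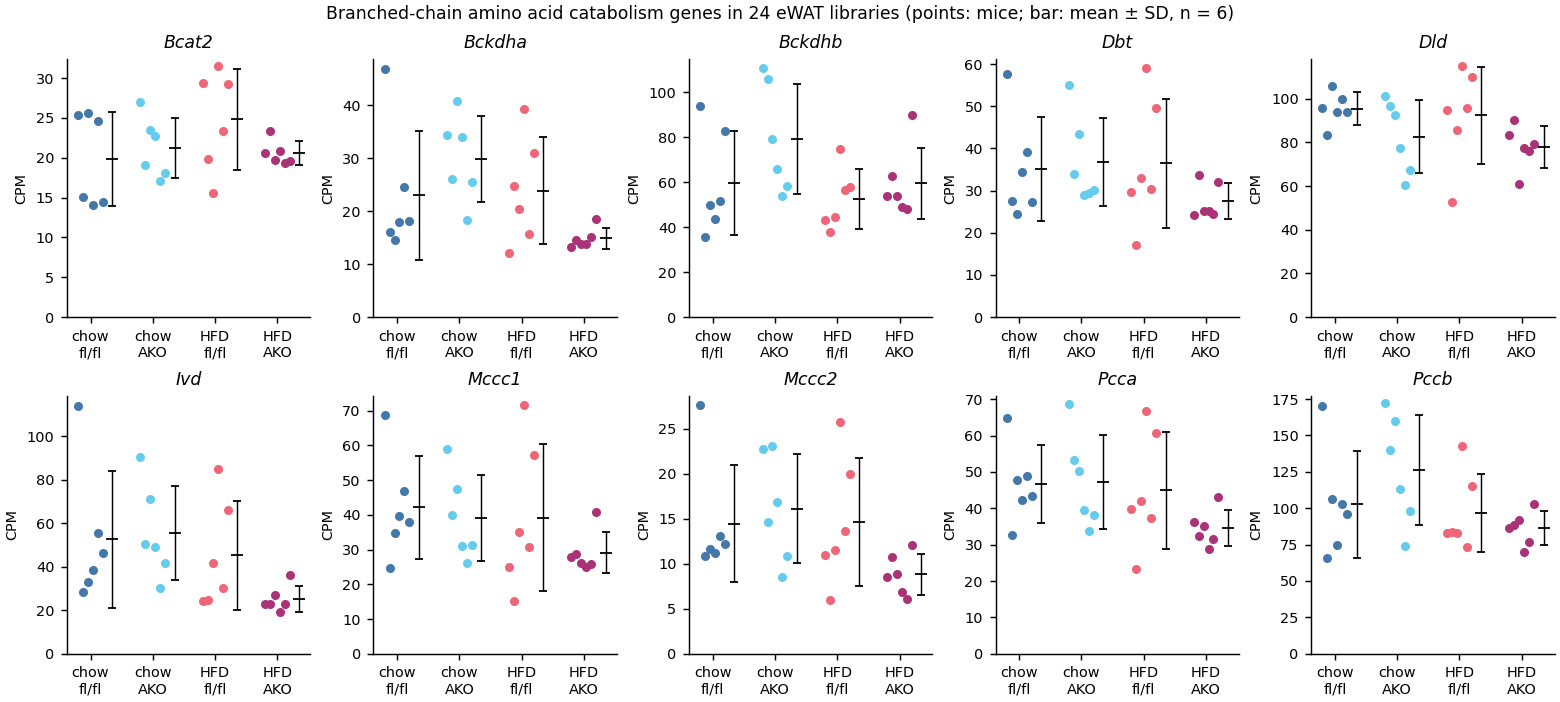
Normalized level (CPM, linear axis from 0) of each of the 10 genes in the 24 libraries, with 1 point per mouse and bars for the mean ± SD of 6 mice. For *Bckdha*, *Ivd* and *Mccc2* the HFD-fed AKO points sit low and close together (13.3 to 18.6 CPM for *Bckdha*), while single libraries of the other groups reach far higher (46.9 CPM in chow-fed fl/fl).

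The remaining members are described in the order of the pathway. *Bcat2* (ENSMUSG00000030826, chromosome 7, 45570153 to 45589711), the mitochondrial transaminase, moved least with diet in AKO mice. Its libraries had 17.1 to 27.0 CPM on chow and 19.3 to 23.4 CPM on HFD, and the change was -0.05 (SE 0.184, adjusted p = 0.865, edgeR). In fl/fl mice *Bcat2* had the highest estimate of the 10 (0.32, SE 0.183, adjusted p = 0.612), with chow values of 14.05 to 25.6 CPM and HFD values of 15.6 to 31.5 CPM. Of the 6 HFD-fed fl/fl libraries, 3 lay above every chow-fed one.

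The partner of *Bckdha* in E1 is *Bckdhb* (ENSMUSG00000032263, chromosome 9, 83925145 to 84124240). It had a median of 72.8 CPM in chow-fed and 54.0 CPM in HFD-fed AKO libraries, with ranges of 53.8 to 111 and 47.9 to 89.7 CPM that overlapped widely, and the change was -0.41 (SE 0.239, adjusted p = 0.199, edgeR). *Dbt* (ENSMUSG00000000340, chromosome 3, 116513070 to 116549981) encodes the E2 core that carries lipoic acid. Its AKO libraries had 28.9 to 55.0 CPM on chow and 24.2 to 33.7 CPM on HFD, with 4 of 6 HFD values under the chow range, and the change was -0.42 (SE 0.247, adjusted p = 0.199). *Dld* (ENSMUSG00000020664, chromosome 12, 31331277 to 31351453) encodes E3, the flavoprotein that BCKDH shares with the pyruvate and 2-oxoglutarate dehydrogenases and the glycine cleavage system. No HFD-fed AKO library lay below its chow range of 60.6 to 101 CPM, and the change was -0.09 (SE 0.157, adjusted p = 0.703).

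Among the carboxylases, *Mccc1* (ENSMUSG00000027709, chromosome 3, 35959312 to 36000678) encodes the biotin-carrying alpha subunit of MCC. It ran from 26.1 to 58.9 CPM in chow-fed and from 25.1 to 40.9 CPM in HFD-fed AKO libraries, a change of -0.43 (SE 0.292, adjusted p = 0.268, edgeR). *Pcca* (ENSMUSG00000041650, chromosome 14, 122534324 to 122891100), the biotin-carrying subunit of PCC, had a median of 44.9 CPM on chow and 33.8 CPM on HFD in AKO mice, and 3 HFD-fed libraries lay below the chow range of 33.8 to 68.7 CPM. *Pccb* (ENSMUSG00000032527, chromosome 9, 100982032 to 101034898), its partner, had a median of 126.8 CPM on chow and 87.5 CPM on HFD. The changes were -0.46 (SE 0.213, adjusted p = 0.112) for *Pcca* and -0.55 (SE 0.221, adjusted p = 0.0702) for *Pccb* by edgeR, and neither passed the test.

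As a group, the genes had 10 of 10 estimates below 0 for HFD against chow in *Lama4* AKO mice, with a median of -0.44 beside -0.0031 over all 15020 genes tested. At an adjusted p of at most 0.05, 3 of 10 were lower, where 12.9% of all genes were. At an unadjusted p under 0.05, 5 of 10 were lower (*Pcca* and *Pccb* in addition), beside 21.6% of all genes. None of the 10 met the criteria of the study's methods (1.5-fold or more, a nominal p no higher than 0.001, and 2 CPM or more in the higher group mean), which 4.12% of all genes met. No gene of the 10 separated the 6 HFD-fed from the 6 chow-fed AKO libraries without overlap, while 4.13% of all genes did so with HFD lower. None of the 3 calls held with every library left out in turn. *Mccc2* no longer passed without any 1 of 13 of the 24 libraries (adjusted p from 0.0512 to 0.119), 4 of them fl/fl libraries that only share in the estimate of spread. *Ivd* no longer passed without any 1 of 5 (0.0514 to 0.075) and *Bckdha* without any 1 of 3 (0.0504 to 0.0605). Without chow-fed AKO replicate 1, chow-fed AKO replicate 3 or HFD-fed AKO replicate 4, none of the 10 passed an adjusted p of 0.05, and without HFD-fed AKO replicate 1 or 5, 1 did. Leaving out chow-fed fl/fl replicate 1 gave 4, with *Pccb* in addition (adjusted p = 0.0417, edgeR). *Pccb* also passed without chow-fed AKO replicate 5 (adjusted p = 0.0232, edgeR). The share of all genes past that threshold ran from 4.02% to 30.4% over the same fits. The log2 changes themselves moved less, from -0.90 to -1.12 for *Bckdha*, from -0.95 to -1.28 for *Ivd* and from -0.75 to -1.01 for *Mccc2* over all single libraries left out. DESeq2 and limma-voom with sample quality weights put 2 and 4 of the 10 past the criteria of the study, where they put 8.75% and 23.9% of all genes past them.

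In *Lama4* fl/fl mice the same diet contrast gave a median of -0.05 (-0.00806 over all genes), with estimates from -0.22 to 0.32. None of the 10 passed by edgeR at an adjusted p of 0.05 or at an unadjusted p under 0.05. No gene at all passed the former (0%), 9.01% of all genes passed the latter, and 0.173% met the criteria of the study. The intervals were wide: the 95% interval of the change in *Bckdha* ran from -0.519 to 0.627 and that in *Ivd* from -0.928 to 0.495, and the AKO estimates of -1.01 and -1.14 lay outside them, although the difference between genotypes, tested as an interaction, did not pass. Single mice carried much of the spread. HFD-fed fl/fl replicate 4 was the highest of its group for all 10 genes, and replicate 6 was among the 2 highest for 9. Chow-fed fl/fl replicate 1 was the highest of its group for 8. Without HFD-fed replicate 4 the median of the 10 was -0.21, and without chow-fed replicate 1 it was 0.14, so its sign depended on which of these mice were kept. Leaving out HFD-fed replicate 2, the library with *Gm28586*, gave 0.07.

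The methods of the study set aside outlying mice without naming them, and a set of 19 mice inferred in earlier work on these data leaves out HFD-fed fl/fl replicates 3, 4 and 6, chow-fed fl/fl replicate 3 and chow-fed AKO replicate 5. From the HFD-fed fl/fl group that set removes replicate 4, the highest for all 10 genes, and replicate 6, among the 2 highest for 9. Replicate 3, also removed, was among the 2 highest for 0 of the 10. In the 19 mice, *Ivd* (-1.11, SE 0.354, adjusted p = 0.0255) and *Mccc1* (-0.88, SE 0.294, adjusted p = 0.031) were lower on HFD in fl/fl mice by edgeR. These were 2 of 10 genes where 15.5% of all genes were lower, and the median was -0.48. *Bckdha* and *Mccc2* changed sign to -0.49 and -0.55 without passing. In AKO mice 5 of 10 were lower, where 21.4% of all genes were, and *Bckdha* (-1.11) and *Ivd* (-1.27) then met the criteria of the study (9.57% of all genes met them with HFD lower). The comparison in fl/fl mice therefore depends on the mice used, and that in AKO mice keeps its direction for all 10 genes in both sets. From the AKO groups, however, the 19-mouse set leaves out only chow-fed replicate 5, the lowest of its group for 9 of the 10 genes. Leaving out a low chow-fed library moves the estimates further below 0, so the set is a weak check of the direction in AKO mice.

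**Figure D2:**
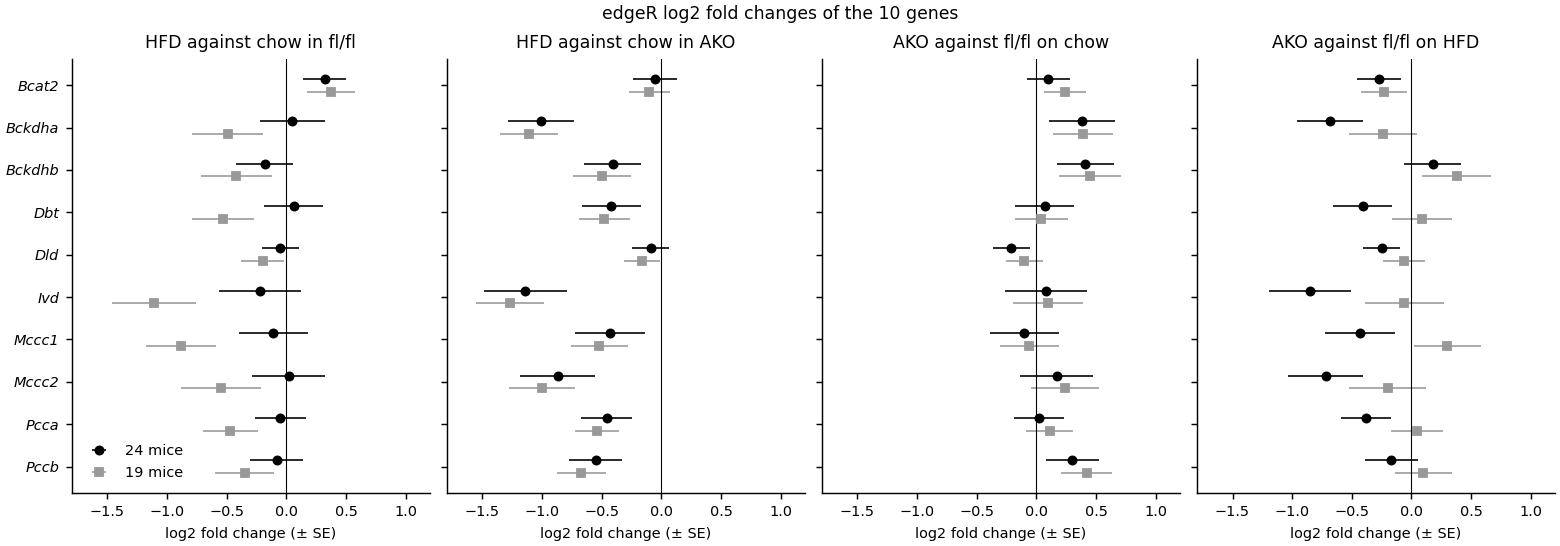
Fitted log2 fold change (± SE) of the 10 genes in 4 comparisons, with black circles for the 24 mice and grey squares for the 19-mouse set. In AKO mice both sets put all 10 genes below 0 for HFD against chow, while in fl/fl mice 24 mice give values near 0 (median -0.05) and the 19 mice give a median of -0.48.

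The difference between genotypes was examined on each diet. On chow none of the 10 passed for *Lama4* AKO against fl/fl libraries. Estimates ran from -0.21 to 0.41 with a median of 0.09, 0 of 10 had an unadjusted p under 0.05 by edgeR (5.85% of all genes had), and 0 of 10 passed the adjusted threshold or the criteria of the study (0% and 0.113% of all genes). *Bckdhb* (0.41, SE 0.239, adjusted p = 0.916) and *Bckdha* (0.38, SE 0.275, adjusted p = 0.928) had the highest estimates. With 1 library left out *Bckdhb* ran from 0.29 to 0.59 and *Bckdha* from 0.27 to 0.71, both highest without chow-fed fl/fl replicate 1, which also moved the median of the 10 from 0.09 to 0.37, again with no gene past the test.

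On HFD 9 of 10 estimates lay below 0 in AKO against fl/fl mice, with a median of -0.39 (-0.0261 over all genes). *Bckdha* (-0.68, SE 0.278), *Ivd* (-0.85, SE 0.345) and *Mccc2* (-0.72, SE 0.311) had unadjusted p-values under 0.05, 3 of 10 where 8.99% of all genes were lower at that level, but their adjusted p-values were 0.297, 0.297 and 0.309 (edgeR). No gene among all 15020 passed the adjusted threshold in this comparison (0%), and 0.173% met the criteria of the study, none of them among the 10. For *Bckdha* all 6 HFD-fed AKO libraries lay below the HFD-fed fl/fl median of 22.6 CPM, and 4 fl/fl libraries lay above the AKO range, yet the lowest fl/fl library (12.2 CPM) was lower than any AKO library. *Bckdhb* was the exception in direction (0.18, SE 0.239, adjusted p = 0.71). Without HFD-fed fl/fl replicate 2 the median was -0.53, without replicate 4 it was -0.20, and in the 19 mice it was -0.01, so this difference follows the choice of HFD-fed fl/fl mice.

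Whether diet acted differently in the genotypes was tested directly with the interaction of diet and genotype. All 10 estimates were below 0 (median -0.44, beside -0.029 over all genes), and the largest were *Bckdha* at -1.06 (SE 0.391, adjusted p = 0.257), *Ivd* at -0.93 (SE 0.484, adjusted p = 0.345) and *Mccc2* at -0.89 (SE 0.437, adjusted p = 0.324) by edgeR. None of the 10 passed at an adjusted p of 0.05, as 0.00666% of all genes did, or by the criteria of the study (0.386%), and 1 of 10, *Bckdha*, had an unadjusted p under 0.05 (8.74% of all genes did with a lower value). A different response of these genes in the genotypes was thus not shown by edgeR with all mice. Without chow-fed fl/fl replicate 1, *Bckdha* met the criteria of the study at -1.39, as 1.26% of all genes then did. Limma-voom with sample quality weights put some of the 10 past the adjusted threshold, as counted further below, where 29.5% of all genes passed. The outcome therefore depends on the method. The interaction shares its AKO and fl/fl libraries with the contrasts above and is no separate sample.

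Averaged over both genotypes, HFD against chow had a median of -0.28 with 9 of 10 estimates below 0. *Ivd* (-0.68, SE 0.243, adjusted p = 0.0606) and *Bckdha* (-0.48, SE 0.195, adjusted p = 0.0899) came closest, and 0 of 10 passed the adjusted threshold by edgeR, which 6.98% of all genes passed with HFD lower. Both had unadjusted p-values under 0.05, 2 of 10 beside 18.4% of all genes, and none met the criteria of the study (2.25%). Without HFD-fed fl/fl replicate 4, *Ivd* (-0.82, adjusted p = 0.0206) and *Bckdha* (-0.58, adjusted p = 0.0327) passed, 2 of 10 in a fit where 24.7% of all genes passed in either direction. In the 19 mice 7 of 10 passed, where 26.7% of all genes were lower.

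Adipocyte markers moved with the pathway. The 8 adipocyte markers summed to a median of 30710 CPM in chow-fed fl/fl (19030 to 50090), 25480 in chow-fed AKO (13780 to 38320), 18110 in HFD-fed fl/fl (8783 to 43860) and 9781 in HFD-fed AKO libraries (8129 to 22670). In the AKO diet comparison 4 of the 8 fell (*Retn* -2.54, *Cfd* -2.19, *Adipoq* -1.44, *Lipe* -1.24), beside 12.9% of all genes. The median of the 8 was -1.12, and none of the defining markers was at 0 in any group. In AKO mice the 8 macrophage markers moved the other way. Their sum had medians of 2676 (639 to 3204), 1717 (775.1 to 3532), 2710 (904.8 to 4208) and 3542 CPM (2772 to 4214) in the same order of groups. In the AKO diet comparison 2 of 8 rose (*Itgax* 1.59, *Cd68* 1.46), beside 9.13% of all genes, and the median was 1.06. Of 4 endothelial markers 2 fell (median -0.73), of 4 mesothelial markers 2 fell (median -1.71), and of 4 progenitor markers 1 rose (median 0.60). The same shares of all genes stand beside these counts. No marker of the T cell, B cell, brown-like adipocyte or erythroid lists passed, nor did the 1 skeletal muscle marker tested.

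Within groups, each gene was compared with the mean log2 CPM of the adipocyte markers over the 24 libraries, after centring each group on its mean. The Pearson r was 0.967 for *Ivd*, 0.952 for *Mccc1*, 0.924 for *Pcca*, 0.921 for *Mccc2*, 0.885 for *Pccb*, 0.875 for *Dbt*, 0.816 for *Bckdhb*, 0.806 for *Bckdha*, 0.652 for *Dld* and 0.496 for *Bcat2*. Spearman's rho was 0.951 for *Ivd* and 0.444 for *Bcat2*, the ends of the same range. With the macrophage markers r was negative for all 10, from -0.524 for *Bcat2* to -0.939 for *Ivd*, with rho from -0.389 to -0.893. Over these 20 relations and 100000 permutations within groups, all 20 had an adjusted p at or below 0.05 for r, the largest being 0.037 for *Bcat2* with the adipocyte markers, and many reached 1e-05 unadjusted, the smallest value the permutations can give. The rank correlation of *Bcat2* did not pass with either list (adjusted p = 0.051 and 0.0974, permutation). Leaving out the 2 libraries farthest from the median marker level, chow-fed fl/fl replicate 1 and HFD-fed fl/fl replicate 4, r stayed at 0.956 for *Ivd* and fell to 0.335 for *Bcat2*, and all 20 kept their sign, as they did in the 19 mice. CPM values share 1 total in a library, so a share gained by macrophage transcripts lowers that of all others, and the part of this in the correlations was not tested.

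**Figure D3:**
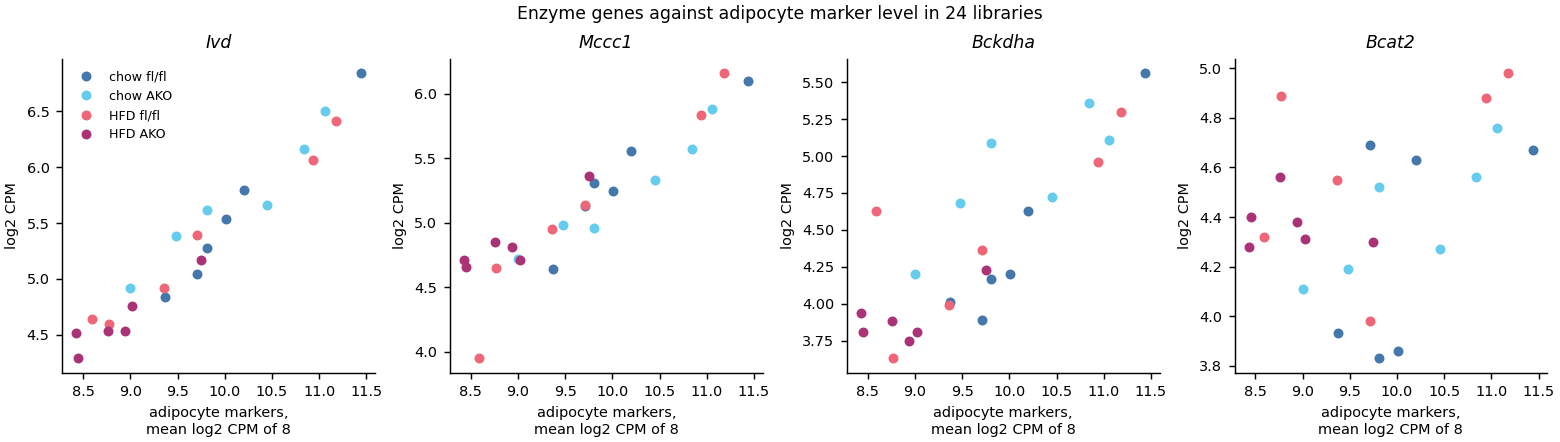
Level (log2 CPM) of 4 of the genes against the mean log2 CPM of the 8 adipocyte markers, 1 point per library, coloured by group. *Ivd* and *Mccc1* lie along a line through all 4 groups, HFD-fed AKO libraries at its lower end, while *Bcat2* scatters (within-group r of 0.967, 0.952 and 0.496).

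With the adipocyte marker level as a covariate of the edgeR fit, an alternative chosen after seeing the data, the changes on HFD in AKO mice were -0.40 (SE 0.198, adjusted p = 0.347) for *Bckdha*, -0.18 (SE 0.121, adjusted p = 0.483) for *Ivd* and -0.05 (SE 0.162, adjusted p = 0.913) for *Mccc2*. The 10 genes then ran from -0.40 to 0.37 with a median of 0.12, and none passed an adjusted p of 0.05. The macrophage marker level as covariate gave a median of 0.05, again with none past the threshold. In both fits 0 of all 15020 genes passed it for this comparison, so the lack of calls is not particular to the 10. *Bckdha* kept the lowest estimate in both fits (-0.42 in the second). A covariate that itself moved with the groups takes part of the group difference, so these fits do not separate cell content from level per cell.

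The libraries also ordered the 10 genes together. Over the 45 pairs of members the within-group r ran from 0.263 to 0.958 with a median of 0.754. Each gene was compared with the mean of the other 9, and r was highest for *Mccc1* (0.947), *Mccc2* (0.937) and *Pcca* (0.933) and lowest for *Dld* (0.695) and *Bcat2* (0.604). The level of *Ivd* had r = -0.959 with the first principal component of all genes over the 24 libraries, and *Bcat2* -0.196, so the transaminase and the shared E3 subunit (-0.472) followed the main axis of the tissue least. These are descriptions of 24 libraries that share depth and cell content. Outside the 10, the genes most like their mean, by Pearson r over the 24 libraries centred within group, were *Bche* (0.969), *Cdo1* (0.966), *Aldh6a1* (0.965), *Slc2a4* (0.960), *Scd1* (0.959), *Aldh5a1* (0.957), *Acadsb* (0.957) and *Cnnm2* (0.952). *Aldh6a1* (methylmalonate semialdehyde dehydrogenase, of the valine branch) and *Acadsb* (the dehydrogenase of the isoleucine branch) belong to the same pathway, and *Slc2a4* encodes the insulin-responsive glucose transporter.

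Further enzymes of the same pathway were taken from a list of 15, all of which were tested. For HFD against chow in AKO mice 3 of 15 fell at an adjusted p of 0.05 by edgeR, beside 12.9% of all genes. In the opposite direction 1 of 15 passed, beside 9.13% of all genes, and the median was -0.44, the same as that of the 10 genes. *Mmab*, which makes adenosylcobalamin for methylmalonyl-CoA mutase, fell by 0.86 (SE 0.217, adjusted p = 0.0184). It was the only one past the criteria of the study, which 4.12% of all genes met. *Echs1* (-0.82), the short-chain enoyl-CoA hydratase, and *Acadsb* (-0.76) also fell. In fl/fl mice and in both genotype comparisons none of the 15 passed, as 0% of all genes did, so this lack is not particular to the list.

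Of 9 regulators and transporters, 1 fell in AKO mice on HFD, near the 12.9% of all genes. It was *Slc43a1* (-0.94, adjusted p = 0.0368, edgeR), a carrier of large neutral amino acids at 1.15 to 4.10 CPM in these groups. *Klf15*, a transcription factor of branched-chain amino acid breakdown, had the lowest estimate at -1.02 (SE 0.497) without passing (adjusted p = 0.127). The kinase *Bckdk* that inactivates BCKDH (-0.21, adjusted p = 0.31) and the phosphatase *Ppm1k* that activates it (-0.22, adjusted p = 0.35) had almost the same estimates, and neither passed. The mitochondrial carrier *Slc25a44* (-0.17, adjusted p = 0.371) and the cytosolic transaminase *Bcat1* (0.32, adjusted p = 0.203) did not pass either.

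Other users of *Dld* and of biotin were examined next. Of 10 subunits of complexes that share E3, 1 fell on HFD in AKO mice (*Gcsh* of the glycine cleavage system, -0.77, adjusted p = 0.0317, edgeR), and the median was -0.11, close to the -0.09 of *Dld*. That is 1 of 10 beside 12.9% of all genes. Of the 5 genes of other biotin enzymes and of biotin handling, 4 fell, beside 12.9% of all genes. They were *Acacb* (acetyl-CoA carboxylase 2, -1.66, adjusted p = 0.028), *Pcx* (pyruvate carboxylase, -1.07, adjusted p = 0.0316), *Hlcs* (which attaches biotin to MCC, PCC and the others, -0.86, adjusted p = 0.013) and *Btd* (which frees biotin for reuse, -0.38, adjusted p = 0.0461). *Acaca* at -0.91 missed the threshold (adjusted p = 0.0504). *Hlcs* alone met the criteria of the study, which 4.12% of all genes met. It was also lower over both genotypes (-0.47, adjusted p = 0.0329, edgeR), beside 6.98% of all genes. Single libraries decided many of these list calls: with any 1 library left out, the counts past an adjusted p of 0.05 ran from 1 to 6 for the 15 enzymes, from 0 to 1 for the regulators and transporters, from 0 to 2 for the complexes that share *Dld* and from 1 to 5 for the biotin genes, each lowest without chow-fed AKO replicate 1, among others. Over the same fits 4.02% to 30.4% of all genes passed in either direction. The adipocyte markers fell beside these lists in the same libraries, as given above.

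**Figure D4:**
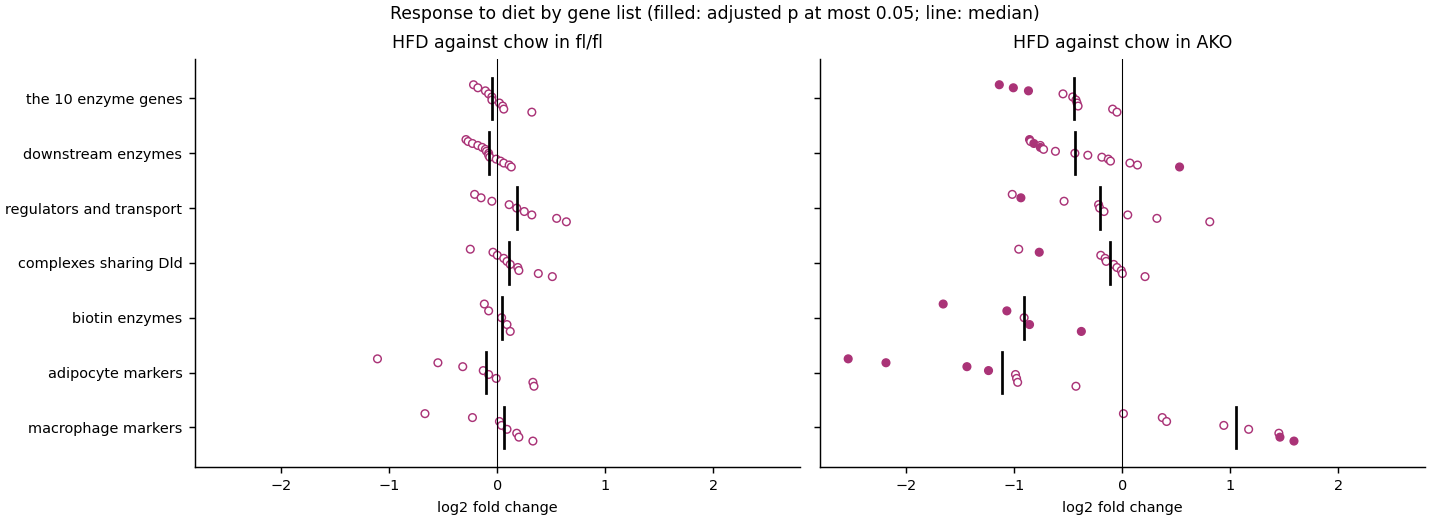
Log2 fold change for HFD against chow of every gene tested in 7 lists, in fl/fl mice (left) and AKO mice (right), with filled points at an adjusted p of at most 0.05 and a bar at the median. In AKO mice the medians are -0.44 for the 10 genes and for the downstream enzymes, -0.91 for the biotin enzymes, -1.12 for adipocyte markers and 1.06 for macrophage markers. In fl/fl mice no point is filled, where 0% of all genes passed the threshold.

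The balance of subunits within a complex was compared as the difference in log2 CPM of partners in a library. These 5 ratios in 4 comparisons were chosen after values were seen. Of the 20 comparisons, 7 had an exact permutation p (two-sided) under 0.05 and 0 had an adjusted p under 0.05. In chow-fed AKO libraries *Bckdha* lay -1.39 ± 0.43 log2 units from *Bckdhb* (SD, n = 6), and in HFD-fed AKO libraries -1.96 ± 0.22, a difference of -0.57 (exact p = 0.0216, adjusted p = 0.0866). The same ratio was -1.20 ± 0.51 in HFD-fed fl/fl libraries (AKO minus fl/fl -0.76, exact p = 0.013, adjusted p = 0.0866), and -0.64 without fl/fl replicate 2. *Dbt* relative to *Bckdha* was 0.57 higher on HFD in AKO mice (exact p = 0.00433, adjusted p = 0.0866), the other side of the same fall in *Bckdha*. *Mccc2* relative to *Mccc1* went from -1.30 ± 0.29 to -1.72 ± 0.23 on HFD in AKO mice (-0.41, exact p = 0.0173, adjusted p = 0.0866) and differed by -0.34 between AKO and fl/fl mice on HFD (exact p = 0.0195, adjusted p = 0.0866). In the 19 mice *Dbt* relative to *Bckdha* was 0.64 higher on HFD in AKO mice and passed (exact p = 0.00216, adjusted p = 0.0433). From the AKO groups that set leaves out only chow-fed replicate 5, whose ratio of 0.68 was the highest of its group. Leaving it out widens the difference, so the set is a weak check here too. The genotype difference in *Bckdha* relative to *Bckdhb* on HFD was -0.54 in the 19 mice and did not pass (exact p = 0.0714, adjusted p = 0.178). The diet difference in *Dbt* relative to *Bckdha* in AKO mice had an adjusted p of 0.0433 also in the family without fl/fl replicate 2. Its own value and exact p were as with all mice, since that comparison uses no fl/fl library.

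*Pccb* relative to *Pcca* did not pass the adjusted threshold in any of the 4 comparisons with all 24 mice. It was 1.10 ± 0.19 in chow-fed fl/fl and 1.40 ± 0.18 in chow-fed AKO libraries, 0.30 higher in AKO (exact p = 0.0281, adjusted p = 0.0938). On HFD it was 1.15 ± 0.35 in fl/fl and 1.32 ± 0.08 in AKO libraries (0.17, exact p = 0.279). The HFD-fed fl/fl values were 1.06, 1.84, 0.98, 1.10, 0.98 and 0.92 for replicates 1 to 6, and those of AKO 1.25, 1.45, 1.39, 1.27, 1.28 and 1.26. Replicate 2 of the fl/fl mice, the library with *Gm28586*, was above every other library of the 24, and the other 5 lay below all 6 AKO libraries. Without it the difference was 0.31 (exact p = 0.00216, the smallest that 5 against 6 can give, adjusted p = 0.0433), a choice made after seeing the data. In the 19 mice, which keep replicate 2 and leave out replicates 3, 4 and 6, it was 0.02 (exact p = 0.893). *Pccb* lies on chromosome 9, 0.451 Mb from *Gm28586* (100530616 to 100531071), and *Bckdhb* lies 16.4 Mb from it on the same chromosome. Whether sequence near these genes differs between the lines was not tested.

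**Figure D5:**
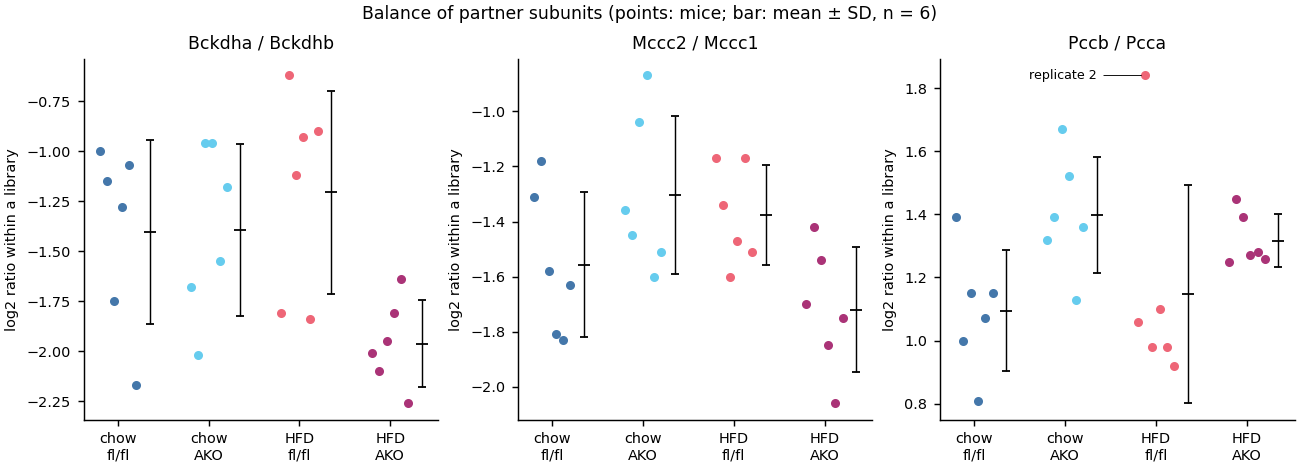
Log2 ratio of partner subunits within each library for BCKDH E1, MCC and PCC, with 1 point per mouse and bars for the mean ± SD of 6 mice. The HFD-fed AKO group has the lowest mean for *Bckdha*/*Bckdhb* (-1.96 ± 0.22) and *Mccc2*/*Mccc1* (-1.72 ± 0.23). Single chow-fed libraries lie below these means. They are fl/fl replicate 6 (-2.17) and AKO replicate 2 (-2.02) for *Bckdha*/*Bckdhb*, and fl/fl replicates 4 (-1.81) and 5 (-1.83) for *Mccc2*/*Mccc1*. In HFD-fed fl/fl mice, replicate 2 stands at 1.84 for *Pccb*/*Pcca*.

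For 3 members a gene on the opposite strand overlaps the last 500 bases, where 3′ tags fall: *B3gnt8* for *Bckdha*, *Gm15952* for *Mccc1* and *Ggact* for *Pcca*. How strand was used in the counting is not given in the sources used here, so reads of these pairs may not be fully apart. *B3gnt8* had an estimate of 0.90 on HFD in AKO libraries (adjusted p = 0.0643, edgeR), opposite in sign to *Bckdha*, and *Ggact* had 0.14 (adjusted p = 0.732). The highest count of *B3gnt8*, 1205, was in HFD-fed fl/fl replicate 2. There *Bckdha* stood at 24.7 CPM, above the median of its group, while *Ivd* was at 24.8 and *Mccc2* at 5.96 CPM, at or near the bottom of theirs. The part of this overlap in the *Bckdha* ratios was not tested.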

How the data were processed

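Total RNA of eWAT from 24 mice, 6 per group, was measured with Lexogen QuantSeq (50 bp forward reads). The deposited counts are raw reads per gene and library, made by the authors with the QuantSeq pipeline on the Bluebee platform, with no scaling. The other deposited table gives these counts after division by 1 size factor per library, a normalized signal, and supplied symbols and positions. The submitters' processing notes name R 4.0.3, DESeq2 1.30 and GRCm38/mm10. Symbols came from the deposited table for 14067 genes and from a gene name table for 2616, and 47 had none.

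Counts were fitted in R 4.3.3 with edgeR 4.0.16 (TMM factors, quasi-likelihood test, 1 coefficient per group, all 24 libraries), for genes reaching 1 CPM in 3 or more libraries. P-values were adjusted by Benjamini and Hochberg over the 15020 genes tested. CPM are TMM-scaled, and log2 CPM use a prior count of 2. Gene intervals are 95%, from the SE and a t quantile on 20 residual degrees of freedom. A count of 0 allows up to 3 counts of a library's total, which covers counting error only. Named genes were the 10 members, list genes past either call rule, *Klf15*, *Bckdk*, *Ppm1k*, *Slc25a44*, *Bcat1*, the 8 genes most like the members, *Lama4* and *Gm28586*. Genes named for a 3′ overlap (*B3gnt8*, *Ggact*, *Gm15952*) and examples of marker lists fall outside this rule and were chosen after values were seen. The result of 1 gene of the list of 15 further enzymes is not reported here. Members and lists were chosen with earlier results of these data known. Ratios and correlations used SciPy 1.17.1, with exact or 100000 permutations.

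Alternatives were the 19 mice, limma-voom (limma 3.58.1) on both sets and with sample quality weights, DESeq2 1.42.0, RLE factors, other filters, fits of only the groups compared, a replicate block and each library left out. Marker covariates were added after seeing the data. The 19 mice were inferred in earlier work on these data, and that inference was not repeated here. No pair of libraries within a group was a duplicate (60 pairs, r of 0.859 to 0.984). Scripts were tested on simulated counts.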

Additional observations from a re-analysis of the deposited data

Results flagged for a closer look

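Each of the 10 genes was examined in each group of 6 libraries for a highest or lowest library that stood apart from the rest by Dixon's 95% criterion (the gap to the nearest library over the range of the group), 40 groups in all, of which chance flags about 1 in 20. *Mccc2* in chow-fed *Lama4* fl/fl mice had its highest library, replicate 1, at 4.80 log2 CPM, with the other 5 between 3.46 and 3.73 (gap over range 0.797). *Mccc1* in HFD-fed *Lama4* AKO mice had its highest library, replicate 6, at 5.36 log2 CPM, with the other 5 between 4.66 and 4.85 (gap over range 0.723). Replicate 1 had the highest mean of the 8 adipocyte markers of all 24 libraries (11.44 log2 CPM), and replicate 6 the highest of its group (9.75, the others 8.43 to 9.02). The part of this in the 2 values was not tested.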

How the results depend on the processing

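The 24 mice were separate animals by the labels, 6 per group, and depth limits little here (50 counts or more). The replicate numbers do not pair the mice: over 36 pairs of same-numbered libraries the correlation of deviations ran from -0.534 to 0.714 (15 over 0.1, and 6 were the highest with their own number). With the replicate number as a block, 2 of the 10 genes instead of 3 were lower on HFD in AKO mice at an adjusted p of 0.05, the median stayed at -0.44, and 0 met the criteria of the study in any comparison. Of all genes 16% passed the adjusted threshold in that AKO fit.

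Percentages give the share of all genes past the same rule, in either direction. Counts past the criteria of the study, 0 in the main fits, were for HFD against chow in AKO mice 2 in the 19 mice (15.7%), 2 with limma-voom on them (15.9%), 2 with DESeq2 (8.75%), 4 with quality weights (23.9%), 2 with only the groups compared (9.55%), 3 by an adjusted p alone (22.1%) and 0 to 2 with 1 library left out (1.99% to 7.8%). They were 1 with quality weights for genotype on chow (1.92%), 2 with quality weights (9.04%) and 0 to 1 with a library left out (0.193% to 1.26%) for the interaction, and 2 in the 19 mice by edgeR (21.4%) and by limma-voom (21.7%) for diet over both genotypes. Counts at an adjusted p of 0.05 became 2 in fl/fl mice on diet (19 mice, edgeR 29% or limma-voom 30.9%). In AKO mice on diet they became 5 (19 mice, edgeR 40.3% or limma-voom 40.6%), 8 (quality weights, 53.8%), 5 (only the groups compared, 35%), 0 (either marker covariate, 0%) and 0 to 4 (a library left out, 4.02% to 30.4%). Quality weights gave 1 for genotype on chow (5.08%), 3 on HFD (17.1%), 6 for the interaction (29.5%) and 3 over both genotypes (31.9%), where the 19 mice gave 7 by edgeR (51.9%) or limma-voom (52.7%), DESeq2 1 (21.9%) and leaving out a library 0 to 2 (2.92% to 25.2%). In fl/fl mice small changes with diet turned sign: *Ivd* to 0.09 with quality weights (-0.50 to 0.16 with a library left out), *Bckdha* to -0.49 and -0.41 in the 19 mice by edgeR and limma-voom (-0.14 to 0.38), and *Mccc2* to -0.55, -0.50 and, with limma-voom on all mice, -0.03 (-0.22 to 0.31). *Bcat2* in AKO mice ran from -0.11 to 0.03. RLE factors and other filters changed no call. The causes were not tested.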

Other observations

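The highest and lowest levels were spread over few mice. Of the 10 genes, HFD-fed *Lama4* fl/fl replicate 4 was the highest of all 24 libraries for 4, chow-fed fl/fl replicate 1 for 3 and chow-fed AKO replicate 1 for 3. HFD-fed fl/fl replicate 2 was the lowest of all 24 for 5 of the 10, although its *Bckdha* and *Pccb* were not. In the HFD-fed AKO group, replicate 6 was the highest for 7. The HFD-fed fl/fl group held both ends of the range over all 24 libraries for *Dbt*, *Dld* and *Mccc1*, and not for the other members. The HFD-fed AKO libraries lay closer together than the HFD-fed fl/fl ones. Their SD was 0.17 log2 CPM for *Bckdha* (0.62 in HFD-fed fl/fl) and 0.30 for *Ivd* (0.76 in HFD-fed fl/fl).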
